A study of Rattus norvegicus with 16 samples.

Results

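The genes described here are 32 genes of macrophages and related myeloid cells, taken from a list of symbols and read out of 31038 genes in RNA-seq libraries of the rat sciatic nerve. They were chosen by name, with earlier results of these data known, to follow the myeloid component of whole nerve and its loss when Schwann cells are purified. There were 16 libraries in 8 groups of 2. The groups were whole nerve and purified Schwann cells, each taken without injury (uncrushed) or at day 3, 5 or 7 following a crush made at postnatal day 18. No group carried a transgene. Crushed animals were operated on under isoflurane and received carprofen, an anti-inflammatory analgesic, while uncrushed nerves came without a sham operation, so crush, surgery and drug cannot be told apart. Uncrushed nerves were taken at postnatal day 18 and crushed nerves days after a crush at that age, so crush and age cannot be told apart either. Only the stretch of nerve beyond the crush, or its counterpart in uncrushed nerves, was taken. Each sample pooled at least 10 nerves. Schwann cells were purified by immunopanning, in which dissociated cells pass over dishes coated with antibodies. A dish against CD45, the protein of the member Ptprc, removed leukocytes, a dish against Thy1 removed fibroblasts, and a dish against O4 kept Schwann cells. Whole nerve RNA was extracted from tissue that had not been dissociated, so the tissue compared and its preparation cannot be told apart in the comparisons of Schwann cells with whole nerve given here. Dissociated nerve, which the study also profiled, was not analysed here.

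Macrophages live in the uninjured nerve and are joined after injury by monocytes from the blood. They take up debris of axons and myelin, a process shared with Schwann cells. Their identity depends on the transcription factor PU.1, on signaling by CSF1 through its receptor, and on receptors that pass signals through small adaptors carrying an ITAM, a motif that is phosphorylated when a receptor is engaged. The 32 members were sorted by role into a regulator and the CSF1 axis (3 genes), general leukocyte genes (7), macrophage markers (5), scavenger and lectin receptors (7), ITAM adaptors with Trem2 and Fc receptors (5), and effector genes (5).

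Expected counts per library, which are RSEM's estimates of fragments per gene, summed to between 10555067 and 27562637. Levels are given as FPKM, fragments per gene length and library depth. FPKM is not corrected for composition, and in the fit of the 8 whole nerve libraries the scaling factors of edgeR's TMM method were 0.808 and 0.811 in uncrushed nerve against 1.06 to 1.09 after crush. Ratios of FPKM between crushed and uncrushed whole nerve are therefore larger than the fitted fold changes, which use these factors. A gene was called at an adjusted p below 0.05 in edgeR's quasi-likelihood test. Schwann cell markers were present in all purified libraries, with a summed FPKM of 3800 to 7668 over 8 genes, beside 12619 and 15726 in uncrushed whole nerve and 2166 to 4079 in crushed whole nerve. With counts pooled from many nerves, fewer macrophages and less RNA per macrophage cannot be told apart.

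One library stood apart. In replicate 2 of the day 3 Schwann cells 28 of the 32 members had more counts for the depth of the library (CPM, counts scaled to library depth) than in replicate 1. Summed over the 29 members other than Cd48, Csf1 and Gpnmb, a set trimmed after its values were seen, replicate 1 held 29.2 CPM and replicate 2 held 124. The other 6 Schwann cell libraries held between 24.8 and 52.3. Endothelial markers moved with them, at 1.90 and 10.3 CPM in replicates 1 and 2 for the sum of 4 genes, all 4 higher in replicate 2. Mast cell markers summed to 41.2 and 58.0 CPM, 6 of 7 higher in replicate 2, with 60 and 420 counts of Cpa3, a mast cell protease. Pericyte markers summed to 17.6 and 25.5 CPM, all 3 higher in replicate 2, and fibroblast markers to 1050 in both, with 3 of 4 higher in replicate 2. The part of these other cells in the results was not tested. Several results that rest on this library are given with and without it, and the remaining ones only with it.

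**Figure D1:**
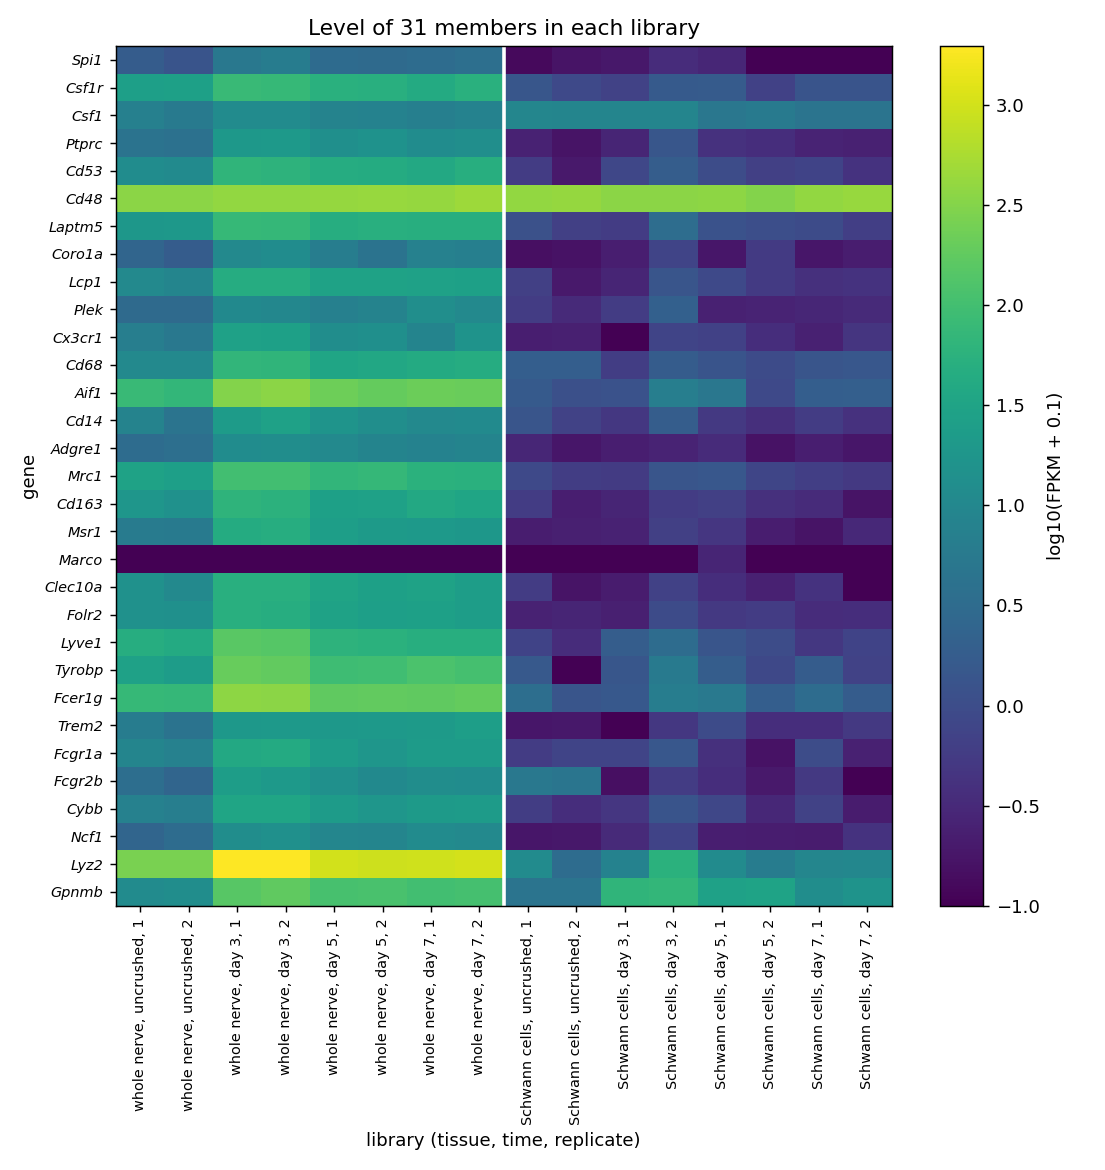
Level of 31 members in each of the 16 libraries as log10(FPKM + 0.1), with genes in rows by role and libraries in columns, whole nerve to the left of the white line and Schwann cells to the right. Most rows are bright in whole nerve, brightest at day 3, and dark in Schwann cells, while Cd48 is bright throughout and Marco is dark in all whole nerve libraries.

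Almost the whole group of genes was higher in whole nerve after crush. At day 3, 29 of the 31 members tested were higher than in uncrushed nerve and 2 were lower, against 23.1% of all tested genes called higher and 22.5% called lower. The median log2 fold change of the members was 1.72, and that of all 15831 genes tested was 0.00. At day 5, 26 members were still higher and none lower, against 18.9% of all genes higher, and at day 7, 24 were higher and 2 lower, against 15.4% and 15.9%. The 3 comparisons share the uncrushed libraries. Marco, a scavenger receptor of some resident macrophages, was the member not tested, since it had no count in any whole nerve library. In the fit of all 16 libraries 21 members were called higher at day 5 and 20 at day 7, against 21.0% and 16.9% of all genes higher in that fit, with Csf1r lost at both times, Cd14, Cd163, Coro1a and Cx3cr1 at day 5, and Clec10a, Folr2 and Mrc1 at day 7.

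Spi1, which encodes PU.1, had a low level in whole nerve, at 1.67 and 1.23 FPKM in the 2 uncrushed libraries, 5.13 and 6.22 at day 3, then 3.03 and 2.97 at day 5, and finally 3.25 and 3.64 at day 7. Both day 3 libraries lay above all others. Spi1 rose at day 3 by 1.51 on the log2 scale (SE 0.26, adjusted p = 0.000792, edgeR), and its log2 fold changes of 0.59 at day 5 and 0.75 at day 7 were not called. Csf1r, the receptor for CSF1 and IL34, went from 26.4 and 27.3 FPKM to 81.4 and 76.4 at day 3, then 52.6 and 50.7, and 42.8 and 53.0. It was called higher at all 3 times, with log2 fold changes of 1.15, 0.54 and 0.43. The ligand gene Csf1 had 7.25 and 5.73 FPKM in uncrushed nerve and 11.8 and 11.7 at day 3, a log2 fold change of 0.44 (SE 0.13, adjusted p = 0.0172, edgeR), which lost its call without replicate 2 of uncrushed nerve or either day 3 library. At days 5 and 7 its log2 fold changes were -0.10 and -0.23, neither called. In this group of 3 the receptor alone was called at days 5 and 7.

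Because Spi1 is a member, the letters GAGGAA, the core that PU.1 and other ETS factors bind, were searched on both strands in the 250 bases before the start of each gene, in a RefSeq table of the assembly GRCr8. The table held 20 of the 32 members. The letters were found in 13 of those 20 (Ptprc, Cd53, Laptm5, Csf1r, Cd68, Cd14, Adgre1, Mrc1, Marco, Trem2, Lyz2, Cybb and Gpnmb) and in 23.3% of the 33469 upstream windows of the whole table. The longer form GAGGAAGT, which contains GAGGAA, was found in 2.04% of all windows and in 1 member, Cd53. Marco holds the letters although it had no count in whole nerve, and Gpnmb holds them although it also rose in Schwann cells. A match of letters is a description and not a site. The windows of the general leukocyte gene Cd53, of the macrophage genes Cd68, Trem2 and Lyz2, and of Gpnmb are shown so that the position of the letters can be compared. They run 5′ to 3′ along the strand of the gene and end at the base before its start, and capitals mark GAGGAA or its reverse complement TTCCTC, or the longer form in Cd53.
Cd53 (chr2:197087897-197088146, minus strand): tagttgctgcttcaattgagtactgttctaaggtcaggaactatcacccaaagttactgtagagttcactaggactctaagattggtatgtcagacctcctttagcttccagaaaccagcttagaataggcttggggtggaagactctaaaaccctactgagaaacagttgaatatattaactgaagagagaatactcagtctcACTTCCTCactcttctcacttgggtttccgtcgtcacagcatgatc
Cd68 (chr10:54882442-54882691, minus strand): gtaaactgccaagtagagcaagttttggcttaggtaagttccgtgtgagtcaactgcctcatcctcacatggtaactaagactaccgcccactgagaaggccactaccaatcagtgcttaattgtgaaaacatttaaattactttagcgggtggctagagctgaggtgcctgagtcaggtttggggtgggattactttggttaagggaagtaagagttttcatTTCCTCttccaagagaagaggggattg
Trem2 (chr9:20151780-20152029, minus strand): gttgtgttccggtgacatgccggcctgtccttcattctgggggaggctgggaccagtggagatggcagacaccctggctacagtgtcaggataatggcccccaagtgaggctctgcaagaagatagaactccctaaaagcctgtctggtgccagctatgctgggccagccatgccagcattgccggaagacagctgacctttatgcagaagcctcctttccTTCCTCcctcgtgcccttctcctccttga
Lyz2 (chr7:54798012-54798261, minus strand): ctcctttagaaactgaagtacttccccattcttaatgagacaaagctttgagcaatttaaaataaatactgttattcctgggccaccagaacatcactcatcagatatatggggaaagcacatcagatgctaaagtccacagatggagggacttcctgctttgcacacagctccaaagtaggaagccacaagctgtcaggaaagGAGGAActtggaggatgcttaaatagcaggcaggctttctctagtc
Gpnmb (chr4:79340878-79341127, plus strand): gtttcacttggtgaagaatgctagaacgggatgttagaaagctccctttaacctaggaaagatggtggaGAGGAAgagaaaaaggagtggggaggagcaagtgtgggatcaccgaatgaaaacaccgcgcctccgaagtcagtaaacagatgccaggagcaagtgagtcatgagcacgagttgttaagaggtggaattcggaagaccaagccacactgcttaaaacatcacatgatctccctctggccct
In Cd53, Lyz2, Trem2 and Cd68 the first base of the match lay 46, 46, 29 and 27 bases before the start, and in Gpnmb 181 bases before it. Position did not separate Gpnmb from the other members, since the match lay 207 bases before the start in Adgre1, 163 in Ptprc, 229 and 95 in Csf1r, and 180 and 35 in Mrc1.

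Of the 7 general leukocyte genes, 6 rose at all 3 times. Ptprc, which encodes the pan-leukocyte phosphatase CD45, had 4.16 and 3.97 FPKM in uncrushed whole nerve, 19.1 and 20.7 at day 3, then 13.7 and 15.3 at day 5, and finally 12.4 and 13.1 at day 7. Its groups did not overlap between uncrushed and any later time, and its log2 fold changes were 1.87, 1.42 and 1.23. Cd53, a tetraspanin of leukocytes, rose by 2.02, 1.51 and 1.49 on the log2 scale, and Lcp1, the actin bundling protein L-plastin, by 1.82, 1.22 and 1.13. Laptm5, a lysosomal membrane protein of blood cells, rose by 1.55, 0.97 and 0.98. Coro1a, an actin regulator, rose by 2.01, 0.94 and 1.38 from 2.45 and 1.68 FPKM. Plek, a substrate of protein kinase C, had its highest level at day 7, at 13.1 and 10.2 FPKM against 2.94 and 2.98 in uncrushed nerve, and log2 fold changes of 1.38, 0.99 and 1.57.

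The seventh, Cd48, a surface protein of leukocytes anchored by a lipid, did not follow them. It had 348 and 351 FPKM in uncrushed whole nerve, 390 and 398 at day 3, then 406 and 425 at day 5, and finally 420 and 462 at day 7, more than any other member in uncrushed nerve. Its FPKM was thus slightly higher after crush, but its log2 fold change after TMM scaling was -0.25 at day 3 (SE 0.08, adjusted p = 0.0295, edgeR) and -0.17 and -0.10 at days 5 and 7, not called. The call at day 3 was lost in a fit of all 16 libraries (log2 fold change -0.18, adjusted p = 0.158, edgeR), without the filter on low counts, and when any of the 4 libraries compared was left out (adjusted p = 0.0892 to 0.144, edgeR).

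All 5 macrophage markers rose at days 3 and 5. Cd68, a glycoprotein of macrophage lysosomes, had 10.6 and 10.6 FPKM in uncrushed whole nerve, 66.2 and 65.1 at day 3, then 33.5 and 37.9 at day 5, and finally 42.6 and 45.3 at day 7, and its log2 fold changes were 2.23, 1.35 and 1.64. Aif1, which encodes the calcium-binding protein Iba1, went from 82.3 and 70.6 to 319 and 347 FPKM at day 3, and its log2 fold changes were 1.72, 1.00 and 1.03. Adgre1, which encodes the antigen F4/80, rose by 1.44, 1.08 and 0.86 on the log2 scale. The other two, the fractalkine receptor Cx3cr1 and the lipopolysaccharide co-receptor Cd14, rose at days 3 and 5 only by call. Cx3cr1 had log2 fold changes of 1.83, 0.74 and 0.66, and its 2 day 7 libraries stood at 8.68 and 16.3 FPKM. Cd14 had 1.52, 0.74 and 0.32, and its 2 uncrushed libraries stood at 8.32 and 4.45 FPKM.

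The scavenger and lectin receptors are often used as marks of resident or tissue repair macrophages, and the 6 that were tested rose at day 3. Msr1, the class A scavenger receptor, changed most, from 6.10 and 5.83 FPKM to 43.4 and 48.1 at day 3, then 25.0 and 22.0 at day 5, and finally 21.1 and 18.4 at day 7, and its log2 fold changes were 2.36, 1.50 and 1.21. The lectin genes Clec10a and Mrc1, which encodes the mannose receptor, rose by 1.62 and 1.38 at day 3, and were still called at day 7 at 0.70 and 0.52. Cd163, the receptor for hemoglobin bound to haptoglobin, rose by 1.45, 0.35 and 0.71, and the folate receptor gene Folr2 by 1.33, 0.54 and 0.44. Lyve1, a hyaluronan receptor of some resident macrophages and of lymphatic endothelium, was high at day 3 only. It had 48.2 and 42.3 FPKM in uncrushed nerve, 156 and 147 at day 3, then 59.0 and 55.7 at day 5, and finally 49.4 and 49.9 at day 7. Its log2 fold change was 1.33 at day 3 (adjusted p = 1.36e-06, edgeR), -0.07 at day 5 and -0.28 at day 7 (adjusted p = 0.0434, edgeR), and the last call was lost with upper quartile scaling, in the fit of all 16 libraries and without the filter, with adjusted p of 0.0708 to 0.525 in edgeR. Summed lymphatic endothelial markers, 3 genes, were at 43.8 and 36.1 CPM in uncrushed nerve and 49.0 and 43.6 at day 3. By the test 0 of the 3 were higher at day 3 and 1 was lower, against 23.1% and 22.5% of all genes. The lower one was Prox1 at -0.77 (adjusted p = 0.00272, edgeR). The part of lymphatic endothelium in the Lyve1 change was not tested.

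All 5 genes of the ITAM group rose at all 3 times. Tyrobp encodes DAP12, the adaptor of Trem2, and had 28.5 and 23.7 FPKM in uncrushed whole nerve, 196 and 182 at day 3, then 92.6 and 93.4 at day 5, and finally 122 and 106 at day 7. Fcer1g encodes the common gamma chain of Fc receptors and had 76.3 and 73.6, 365 and 359, 179 and 184, and 175 and 191 FPKM. The log2 fold changes of Tyrobp were 2.43, 1.38 and 1.69, and those of Fcer1g were 1.87, 0.85 and 0.87. Trem2, a receptor for lipids, had a flat course after its rise, at 6.23 and 4.28 FPKM in uncrushed nerve, then 19.6 and 20.3, 19.3 and 20.7, and 21.8 and 25.6. Its log2 fold changes were 1.48, 1.49 and 1.73, and day 7 differed from day 3 by 0.24 (SE 0.16, adjusted p = 0.318, edgeR). Fcgr1a, the high affinity receptor for IgG, rose by 1.86, 0.90 and 1.01. Fcgr2b, the inhibitory receptor for IgG, rose by 2.50, 1.68 and 1.66, from 3.44 and 2.42 FPKM to 24.2 and 20.2 at day 3.

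Of the 5 effector genes, 4 rose at all 3 times. Gpnmb, a membrane glycoprotein found in lysosomes of cells that take up debris, rose most of all members, from 11.7 and 12.4 FPKM to 149 and 173 at day 3, then 109 and 115 at day 5, and finally 98.4 and 107 at day 7, and its log2 fold changes were 3.33, 2.81 and 2.68. Lyz2, which encodes lysozyme, reached the highest level of any member, from 265 and 266 FPKM in uncrushed nerve to 1972 and 1927 at day 3, then 1003 and 923 at day 5, and finally 963 and 1052 at day 7, and rose by 2.47, 1.45 and 1.51 on the log2 scale. Cybb and Ncf1 encode subunits of the phagocyte NADPH oxidase and rose by 1.81 and 1.89 at day 3. Lyz2 and Ncf1 were the only members with expected counts that were not whole, in 12 and 6 libraries, so some of their reads were shared with other genes and their values are uncertain to that extent.

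**Figure D2:**
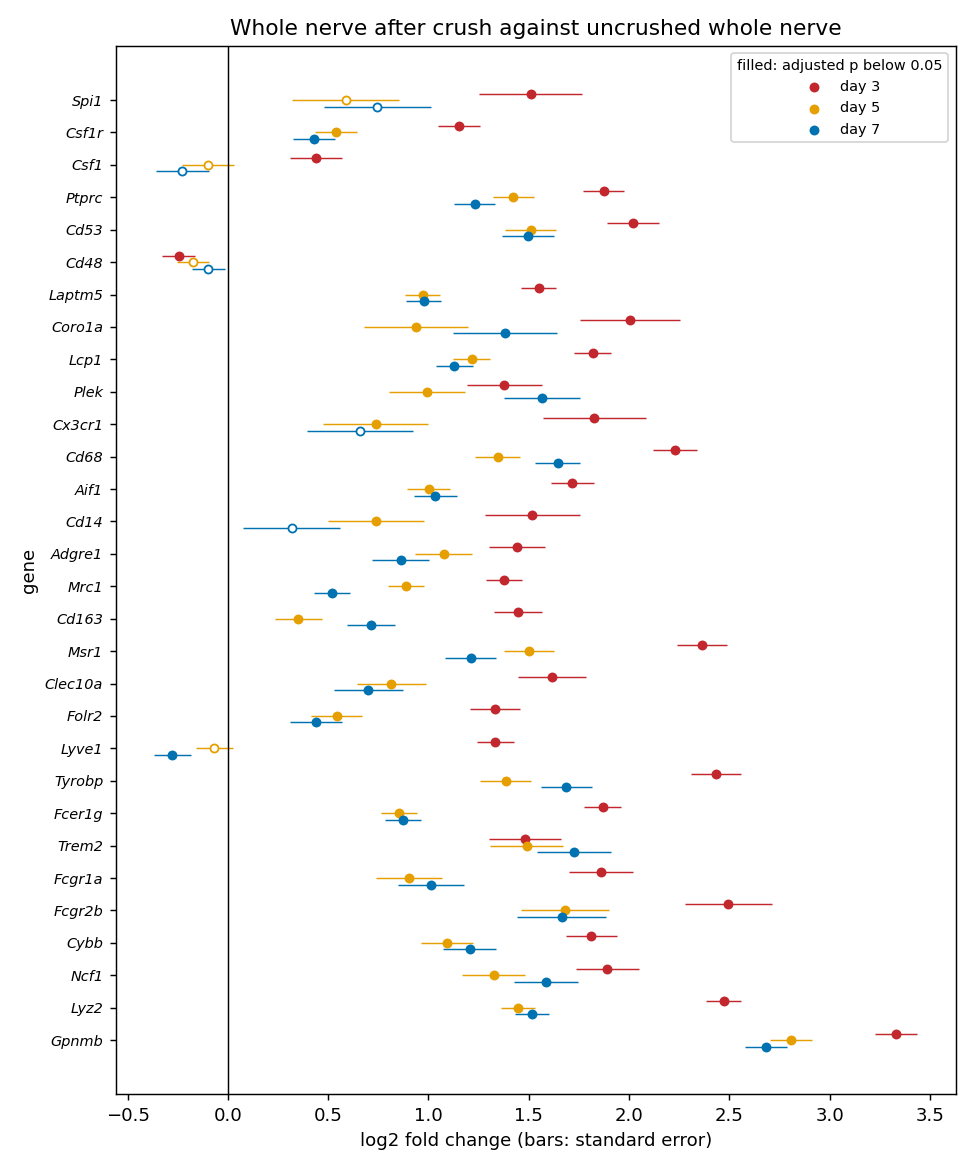
Log2 fold change of each of 30 members tested in whole nerve at days 3, 5 and 7 against uncrushed whole nerve, with bars for the standard error and filled points for an adjusted p below 0.05. Day 3 lies to the right of days 5 and 7 for most genes, Gpnmb reaches 3.33, and Cd48 does not lie to the right of 0 at day 3.

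The level after day 3 was lower for most members. Of the 31 members with a count in whole nerve, 27 had their highest mean FPKM at day 3, and Cd48, Plek and Trem2 had it at day 7. Over the 31 members the median level at day 7 was 61.8% of that at day 3 in FPKM. Day 5 was called lower than day 3 for 26 of 31 members and higher for 0, against 5.87% of all genes lower, and day 7 was called lower for 25 and higher for 0, against 11.4% of all genes. The largest decline was that of Lyve1, with log2 fold changes against day 3 of -1.40 and -1.61. Cx3cr1 and Fcer1g were lower by about the same amount at both times, at -1.09 and -1.17 for Cx3cr1 and -1.02 and -0.99 for Fcer1g, while Cd163 and Tyrobp were at -1.10 and -0.73 and at -1.05 and -0.75. Among the members not called between day 3 and day 5 were Cd48, Plek, Adgre1 and Trem2. These counts rest on both libraries of each group, since leaving out either library of day 3 or of day 5 gave 14 to 17 members called lower at day 5, against 1.51% to 1.67% of all genes, and the fit of all 16 libraries gave 10 at day 5 and 11 at day 7, against 3.72% and 8.49%.

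Purified Schwann cells held little of these transcripts. They were lower than whole nerve for 28 of 31 members without injury, and for 30, 31 and 30 at days 3, 5 and 7, and no member was higher. Of all genes 35.3%, 32.8%, 28.4% and 28.7% were called lower at these times. The median log2 difference of the 31 members was -5.24, -5.73, -5.70 and -6.24, beside -0.10, -0.11, -0.03 and -0.03 for all genes. With members at the counting floor of 3 counts per library set at their ratio or bound, the medians were -5.25, -5.73, -5.70 and -6.20. Upper quartile scaling moved the median of all genes at day 5 from -0.03 to 0.11, and the share of called genes that were higher from 44.9% to 54.6%, a shift far smaller than these differences. The CD45 dish removed leukocytes by the protein of Ptprc, so the low level of Ptprc is what the purification selected for and is not a finding. Most other members are genes of the cells removed by that dish. Their low levels describe how far the depletion went and are not independent of the selection.

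As a share of the whole nerve FPKM, the median over 31 members was 3.19% without injury and 1.65%, 1.96% and 1.33% at days 3, 5 and 7. Without replicate 2 of the day 3 Schwann cells the day 3 median was 0.762%, without replicate 1 it was 2.73%, and the single uncrushed libraries gave 4.71% and 2.38%. Ptprc had 0.16 and 0.07 FPKM in uncrushed Schwann cells and 0.18 and 1.29 at day 3, then 0.31 and 0.26 at day 5, and finally 0.17 and 0.15 at day 7, all below the 3.97 of the lowest whole nerve library. Lyz2 had 11.9 and 3.24, 7.99 and 54.6, 11.7 and 6.23, and 9.18 and 9.69 FPKM, and one day 3 library thus reached 54.6 where the other had 7.99. Mrc1 stayed between 0.42 and 1.38 FPKM in the 8 Schwann cell libraries and between 27.0 and 98.5 in whole nerve. Cd163, at -7.76 at day 7, and Msr1, at -7.36, were the members with the largest fitted differences outside the floor.

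Several members sat at or near the counting floor in Schwann cells, so their folds are given from the counts, with exact 95% intervals that cover counting error only. Spi1 had 0 counts in both day 7 Schwann cell libraries against 110 in whole nerve, which makes it at least 20.8-fold lower against the floor of 3 counts per library. In uncrushed Schwann cells it had 2 counts against 49, a ratio of 30.9 (interval 8.12 to 263). Trem2 had 2 against 130 in uncrushed nerve, a ratio of 82.1 (22.3 to 685), and Folr2 had 4 against 344, a ratio of 109 (42.0 to 401). Ratios of 38.3 to 80.4 were found for Ncf1, Coro1a and Cx3cr1, at 2 to 6 counts in Schwann cells, in uncrushed nerve and, for Coro1a, also at day 7. Marco had 6 counts in replicate 1 of the day 5 Schwann cells and 0 in the other 15 libraries, and no fold is given. At 0 counts, as for Spi1 at day 7, the depth of the Schwann cell libraries thus limits the loss that can be stated. For the genes with a few counts it makes the ratio imprecise.

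**Figure D3:**
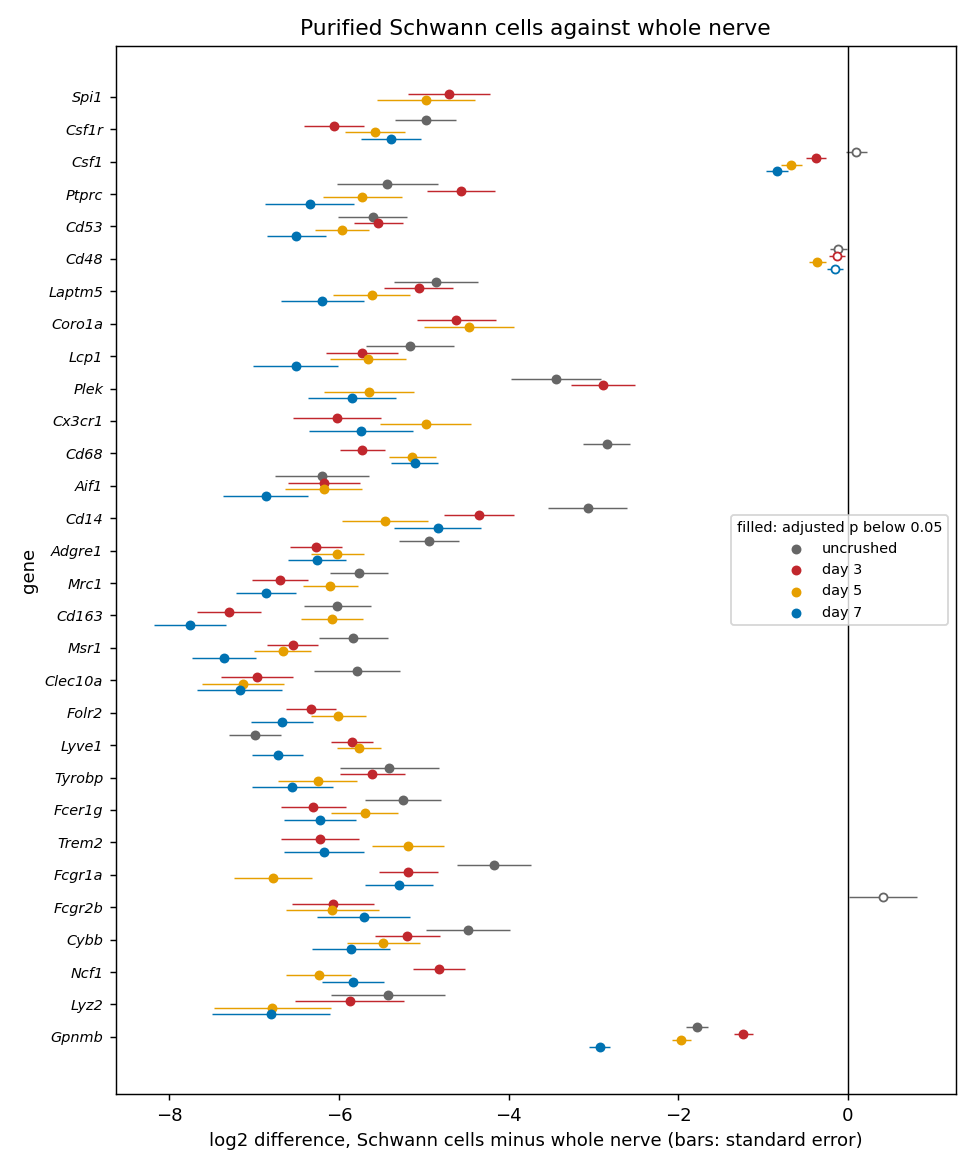
Log2 difference of Schwann cells minus whole nerve for 30 members at the 4 times, with bars for the standard error and filled points for an adjusted p below 0.05. Groups with all Schwann cell libraries at 3 counts or fewer are left out. Most points lie between -4 and -8, with Csf1, Cd48, Gpnmb and, in uncrushed nerve, Fcgr2b near 0 or less far to the left.

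Few members kept a high level in Schwann cells. More than 10% of the whole nerve FPKM was found in uncrushed Schwann cells for 8 members (Cd14, Cd48, Cd68, Csf1, Fcgr2b, Gpnmb and Plek among them), at day 3 for 5 (Cd48, Csf1, Gpnmb and Plek among them), and at days 5 and 7 for Cd48, Csf1 and Gpnmb. Without replicate 2 of the day 3 Schwann cells Plek stood at 4.70% at day 3, while Cd48, Csf1 and Gpnmb stayed above 10%, and without replicate 1 of the uncrushed Schwann cells Cd14 and Plek were not above it. Cd48 had 390 and 418 FPKM in uncrushed Schwann cells and 356 and 348 at day 3, then 373 and 315 at day 5, and finally 398 and 429 at day 7. At the same time, these values overlapped those of whole nerve at day 7 only. They lay above whole nerve in uncrushed samples and below it at days 3 and 5. After TMM scaling the log2 differences were -0.11, -0.13 and -0.15 in uncrushed nerve and at days 3 and 7, not called. At day 5 the difference was -0.36 (SE 0.10, adjusted p = 0.00598, edgeR). The sign in uncrushed samples differs from that of FPKM because the TMM factors were 0.82 and 0.821 in whole nerve and 1.04 and 0.998 in Schwann cells. A leukocyte gene at this level in cells depleted of CD45 stands apart from the other 6 leukocyte genes of its group, which were at 1.08% to 4.76% of whole nerve at days 5 and 7. Whether the reads assigned to Cd48 come from that gene was not tested.

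Csf1 had 9.43 and 8.86 FPKM in uncrushed Schwann cells and 8.90 and 8.88 at day 3, then 4.99 and 5.66 at day 5, and finally 4.34 and 4.45 at day 7. Its uncrushed level lay above both whole nerve libraries in FPKM, with a log2 difference of 0.10 that was not called, and it was lower than in whole nerve by 0.37, 0.67 and 0.84 on the log2 scale at days 3, 5 and 7. Within Schwann cells Csf1 did not pass the test at day 3, and fell by 0.74 at day 5 (SE 0.11, adjusted p = 0.000457, edgeR) and 1.05 at day 7 (SE 0.12, adjusted p = 7.77e-05, edgeR). The receptor gene Csf1r had 0.57 to 1.62 FPKM in the Schwann cell libraries. On the FPKM scale the ligand was thus above its receptor in all 8 Schwann cell libraries, and the receptor above its ligand in all 8 whole nerve libraries.

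In Schwann cells 23 of the members passed the filter on low counts. Against uncrushed cells, 7 were higher and 1 lower at day 3, where 26.9% and 25.7% of all 14961 genes were called, 2 were higher and 3 lower at day 5, against 29.0% and 25.6%, and 1 was higher and 2 lower at day 7, against 25.0% and 21.9%. Gpnmb was higher at all 3 times. It had 4.34 and 4.38 FPKM in uncrushed Schwann cells and 64.1 and 68.7 at day 3, then 28.1 and 31.5 at day 5, and finally 12.4 and 15.9 at day 7. The replicates were close and the groups did not overlap, with log2 fold changes of 3.98 (SE 0.15), 2.74 and 1.65 (adjusted p = 6.37e-08, 4.95e-07 and 1.64e-05, edgeR). Its level in Schwann cells was nevertheless called below that of whole nerve throughout, with log2 differences of -1.78, -1.23, -1.97 and -2.93. Mast cell markers also moved in Schwann cells at day 3, where the 3 of 7 that were tested, Cpa3, Kit and Hdc, rose by 2.72, 2.84 and 3.10 on the log2 scale. Most of their sum was Kit, which had 4.92 and 5.56 CPM in uncrushed Schwann cells and 36.1 and 35.9 at day 3, while the other 6 markers together had 2.28 and 1.67 CPM and then 5.13 and 22.1. Kit was thus even between the day 3 libraries, while the other 6 markers were mostly in replicate 2, the library that stood apart. The folds of Cpa3 and Hdc are given only with that library. Kit was also called higher at days 5 and 7, at 2.46 and 1.83, where Cpa3 and Hdc were not called. The part of mast cells in the member calls at day 3 was not tested.

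The other 6 members called higher at day 3 were Ptprc, Cd53, Plek, Lyve1, Ncf1 and Lyz2, at log2 fold changes of 2.76, 2.13, 1.99, 2.56, 2.33 and 2.13. Counts of Ptprc were 10 and 4 in uncrushed Schwann cells and 13 and 160 at day 3, and those of Plek were 9 and 4 against 11 and 80. Replicate 2 of day 3, the library that also held more endothelial, pericyte and mast cell markers, was far above replicate 1 for both. Without it, Ptprc, Cd53, Plek, Ncf1 and Lyz2 were no longer called (log2 fold changes 0.71, 1.32, 0.57, 1.36 and 0.12), and without replicate 2 of the uncrushed Schwann cells the same 5 lost their calls. Lyve1 and Gpnmb were called higher and Fcgr2b lower in both of these fits. Lyve1 had 25 and 9 counts in uncrushed Schwann cells and 79 and 253 at day 3, then 68 and 43 at day 5, and finally 20 and 22 at day 7, and its log2 fold change at day 3 was 2.04 without that library (adjusted p = 0.0140, edgeR). At day 5 it was 1.29 (adjusted p = 0.0444, edgeR), a call that was lost in DESeq2 (adjusted p = 0.0528), with upper quartile scaling (adjusted p = 0.0553, edgeR), and without replicate 2 of the uncrushed cells or either day 5 library (adjusted p = 0.0540 to 0.226, edgeR). The call of Cd48 at day 5, a log2 fold change of -0.30, was lost without replicate 2 of the uncrushed Schwann cells or replicate 2 of day 5 (adjusted p = 0.103 and 0.325, edgeR).

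**Figure D4:**
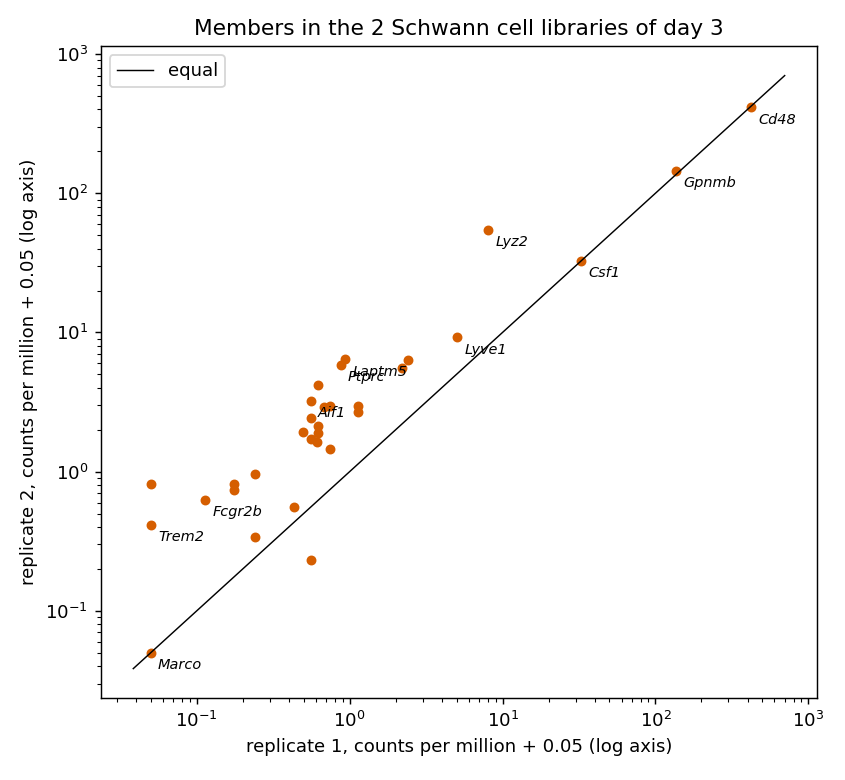
Level of the 32 members in replicates 1 and 2 of the day 3 Schwann cells, in CPM plus 0.05 on log axes, with the line of equal values and some genes named. Of the 32 points, 28 lie above the line, and Cd48, Csf1 and Gpnmb lie close to it.

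Fcgr2b took opposite courses in the 2 tissues. In uncrushed Schwann cells it had 87 and 72 counts, or 5.17 and 4.61 FPKM, which was above both uncrushed whole nerve libraries in FPKM and 0.42 higher on the log2 scale without being called. After crush Schwann cells had 1 and 16 counts at day 3, then 6 and 2 at day 5, and finally 9 and 0 at day 7, and the highest of these 6 libraries stood at 0.47 FPKM. The log2 fold changes were -3.95, -4.69 and -4.38 (adjusted p = 0.00272, 0.00168 and 0.00280, edgeR), from few counts after crush. Without replicate 2 of day 3, which held the 16 counts, the day 3 value was -6.34 (adjusted p = 0.00361, edgeR), and without replicate 1 of day 7 the remaining library had 0 counts, so no fold is given. In whole nerve the same gene rose at all 3 times. The dendritic cell marker Clec9a, a lectin receptor that is no member, took a like course, at 3.64 and 3.70 FPKM in uncrushed Schwann cells against 1.29 and 1.37 in whole nerve, and its log2 fold changes in Schwann cells were -2.43, -2.62 and -2.60, all called, while it rose in whole nerve at day 3 by 1.21. Clec9a was alone among the dendritic cell markers in this. Flt3, Xcr1 and Zbtb46 were called lower in uncrushed Schwann cells than in whole nerve, with log2 differences of -3.39, -2.12 and -1.48. In whole nerve at day 3 Flt3 and Xcr1 were higher, at 3.21 and 1.55, and Zbtb46 was lower, at -0.54. The part of dendritic cells in the values of Fcgr2b was not tested. The effect of crush on Fcgr2b differed between Schwann cells and whole nerve by -6.49, -6.50 and -6.12 on the log2 scale at days 3, 5 and 7. Leaving out replicate 1 or replicate 2 of the Schwann cells of that day gave -5.88 and -8.94 at day 3, and -7.37 and -5.99 at day 5. At day 7 the value was -5.35 without replicate 2, and none is given without replicate 1.

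**Figure D5:**
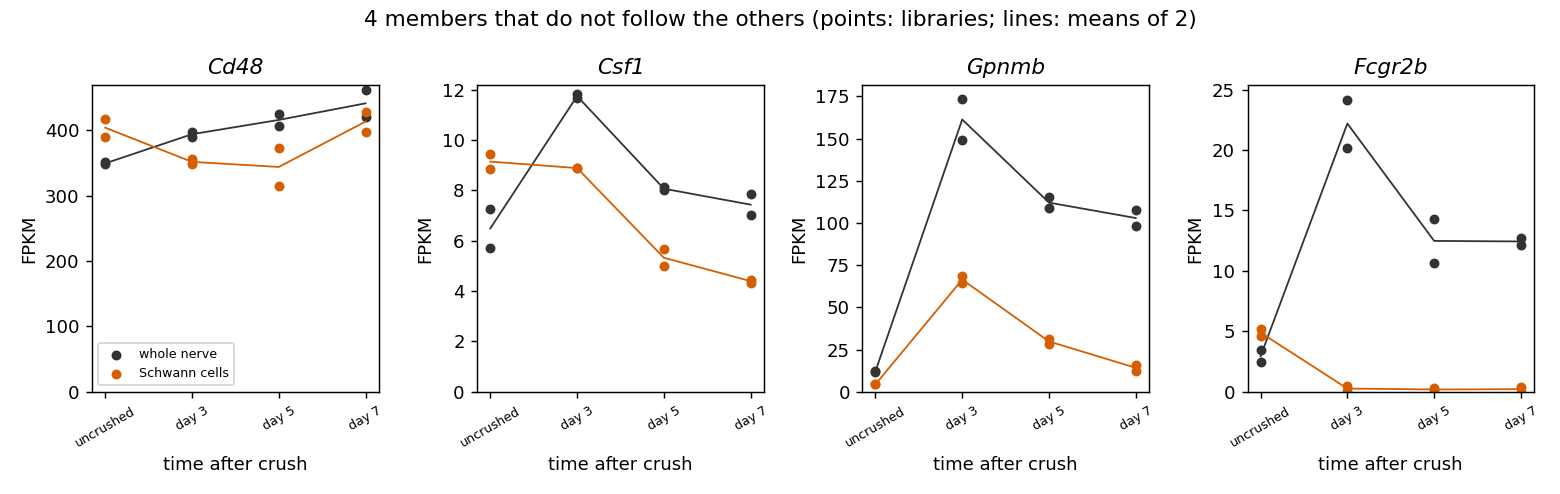
FPKM of Cd48, Csf1, Gpnmb and Fcgr2b in each library by time, whole nerve in black and Schwann cells in orange, with lines through the means of 2 libraries. Cd48 and Csf1 have similar levels in uncrushed samples of both tissues, Gpnmb goes up in both at day 3, and Fcgr2b goes up in whole nerve while it drops to 0.47 FPKM or less in Schwann cells.

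The difference in the effect of crush between Schwann cells and whole nerve was tested for all members as an interaction in the fit of 16 libraries. At day 3, 1 member was called higher in Schwann cells and 2 lower, against 12.3% and 13.7% of all genes. At days 5 and 7, 6 and 5 members were lower and 0 higher, against 14.9% and 14.4% of all genes lower. Cd68 was called lower at each of the 3 times. It had 26 and 23 counts in uncrushed Schwann cells and 8 to 46 after crush, with no call in Schwann cells, while it rose in whole nerve, and the difference of effects was -2.88, -2.29 and -2.26 on the log2 scale. Csf1 differed by -0.77 at day 5 and -0.94 at day 7, and Gpnmb by 0.55 at day 3 and -1.15 at day 7. Cd14 and Fcgr1a differed at day 5 by -2.39 and -2.61, from 1 to 10 counts in the day 5 Schwann cell libraries. Without replicate 2 of the day 3 Schwann cells, 11 members were called lower at day 3 and 0 higher, against 10.6% and 9.0% of all genes in that fit. Without replicate 2 of uncrushed whole nerve, or without replicate 1 of day 5 whole nerve, 3 members were called lower at day 5, against 11.8% of all genes in either fit.

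A second list of 59 genes of myeloid cells, chosen with earlier results of these data known, was read in the same way, and 57 of them were tested in whole nerve. At day 3, 52 were higher and 1 lower, with a median log2 fold change of 1.65, at day 5, 44 were higher and 1 lower, and at day 7, 42 were higher and 0 lower. Of all genes tested 23.1%, 18.9% and 15.4% were called higher at these times. The largest changes at day 3 were those of Lst1, an adaptor of leukocytes, Clec7a, the receptor for beta-glucan, and Lilrb4, an inhibitory receptor, at log2 fold changes of 4.14, 3.77 and 3.71. Il34, the second ligand of Csf1r, was the one that fell, from 7.86 and 9.15 FPKM to 1.78 and 3.14 at day 3, by 2.20 on the log2 scale, and it stood at 8.41 and 7.44 FPKM at day 7, where it was not called. In Schwann cells Il34 fell as well, by 2.85 at day 3 and 1.33 at day 5. The smallest called rise was that of Sirpa, the receptor for CD47, at 0.57.

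Between tissues, 48, 56, 55 and 55 of the 57 genes of that list were lower in Schwann cells in uncrushed nerve and at days 3, 5 and 7, and 2, 1, 1 and 0 were higher. The shares of all genes called lower were 35.3%, 32.8%, 28.4% and 28.7%. The dish against CD45 removed cells of this kind, so these counts too describe the depletion and are not independent of it. In uncrushed nerve Sirpa was higher by 0.39 on the log2 scale. It fell in Schwann cells at day 3 by 0.95, while it rose in whole nerve. Itgax, which encodes the integrin CD11c, was higher in Schwann cells than whole nerve at day 3 by 1.55 (adjusted p = 0.000413, edgeR) and at day 5 by 0.79 (adjusted p = 0.0291, edgeR), and the second call was lost in DESeq2 (adjusted p = 0.0538) and without either day 5 Schwann cell library or replicate 2 of day 5 whole nerve (adjusted p = 0.0610 to 0.280, edgeR). It had 3 and 2 counts in uncrushed Schwann cells and 210 and 316 at day 3, then 293 and 295 at day 5, and finally 48 and 50 at day 7. The 2 day 3 libraries were close for Itgax, at 2.85 and 2.50 FPKM, unlike most members of the main list.

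Markers of other blood cells were scarce. The 9 neutrophil markers summed to 6.16 to 23.9 CPM in whole nerve, 3 of them were tested at day 3 and 0 were called by edgeR or DESeq2 (1 at an unadjusted p below 0.05 in edgeR), and in both day 7 Schwann cell libraries all 9 were at 0. The 11 T and NK cell markers summed to 2.62 and 3.41 CPM in uncrushed whole nerve and 9.72 to 17.2 after crush. Of the 7 that were tested 2, 3 and 2 were higher at days 3, 5 and 7, with Cd8a at 2.77 and Nkg7 at 3.89 on the log2 scale at day 3. The shares of all genes called higher were 23.1%, 18.9% and 15.4% at these days, and 22.5% were called lower at day 3. With so few markers tested, the counts of calls here are not read as a result about these cells. Of 6 B cell markers Pax5 was at 0 in all whole nerve libraries, and only Blnk was abundant enough to be tested at day 3, where it was higher. Mast cell markers were more abundant, at 329 to 572 CPM in whole nerve, with 1 of 7 higher at day 3. Of the 5 dendritic cell markers, 3 were higher and 1 lower at day 3, at 19.0 and 21.8 CPM in uncrushed nerve and 33.0 and 33.7 at day 3. In Schwann cells the 5 summed to 18.1 and 18.8 CPM without injury and to 5.88 and 6.06 at day 3. There the 2 that were tested, Clec9a and Zbtb46, were lower, against 25.7% of all genes. Their part in the changes of general leukocyte genes such as Ptprc, which they share, was not tested.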

How the data were processed

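RNA-seq was analysed in 16 libraries, 2 for each of 8 groups, grouped by their labels. According to the study's methods and the submitters' notes, the authors amplified RNA without molecular identifiers, aligned reads with STAR to Rnor_6.0 and quantified genes with RSEM. The deposited values were expected counts, FPKM and TPM per gene and library, which the authors had not pooled. Libraries held 12334355 to 27562637 expected counts in Schwann cells and 10555067 to 20203912 in whole nerve. Levels are given in FPKM, and TPM served as an alternative. Deposited expected counts were rounded and tested with edgeR 4.0.16 in R 4.3.3 (TMM, filterByExpr, quasi-likelihood, Benjamini-Hochberg adjustment over all genes tested). Whole nerve (15831 genes) and Schwann cells (14961) were fitted separately with 8 libraries each, and tissues were compared in a fit of 16 libraries (16829 genes). Alternatives were upper quartile scaling, DESeq2 1.42.0, no filter, a required change of 2-fold, a replicate block, other sets of libraries, and each library left out. On simulated data of whole nerve at day 3 the test recovered 179 of 200 changed genes among 15464, with 11 unchanged genes called. Promoter sequences came from a RefSeq table of GRCr8. A deposited table of gene modules was not used.

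The 32 members and all lists were chosen with earlier results of these data known. Members are named with values, and of the other myeloid genes the 3 largest and 3 smallest called changes in whole nerve at day 3 and those higher in Schwann cells, except that 1 member and some other genes, although counted in their lists, are not reported here one by one. Each sample pooled at least 10 nerves, but the sources used here do not give which animals each sample came from, so p-values measure only the spread between these samples. No 2 libraries of a group agreed within sampling noise. Intervals and floors cover counting error only. Replicate numbers did not pair the libraries.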

Additional observations from a re-analysis of the deposited data

Results flagged for a closer look

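The effect of crush differed between Schwann cells and whole nerve for several combinations of member and day, by an interaction term in the edgeR fit of 16 libraries. The difference is given as Schwann cells minus whole nerve on the log2 scale, with the adjusted p of that term. Fcgr2b, an inhibitory Fc receptor, differed by -6.49 at day 3 (adjusted p = 4.667e-06, edgeR), -6.50 at day 5 (adjusted p = 1.208e-05, edgeR) and -6.12 at day 7 (adjusted p = 2.165e-05, edgeR). Cd68, a lysosomal glycoprotein, differed by -2.88 (adjusted p = 0.0001446, edgeR), -2.29 (adjusted p = 0.001178, edgeR) and -2.26 (adjusted p = 0.001351, edgeR) at these days. Gpnmb differed in opposite directions, by 0.55 at day 3 (adjusted p = 0.02949, edgeR) and -1.15 at day 7 (adjusted p = 0.0002635, edgeR), and the first was lost without replicate 2 of the day 3 Schwann cells.

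Csf1, the ligand of Csf1r, differed by -0.77 at day 5 (adjusted p = 0.004151, edgeR) and -0.94 at day 7 (adjusted p = 0.00123, edgeR). At day 5 Cd14 differed by -2.39 (adjusted p = 0.03175, edgeR) and Fcgr1a by -2.61 (adjusted p = 0.03244, edgeR). The calls of Cd14 and Fcgr1a at day 5 were lost without replicate 2 of uncrushed whole nerve or without replicate 1 of day 5 whole nerve.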

How the results depend on the processing

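Of the values recomputed under the alternatives, 3247 kept their direction and side of the threshold, 326 lost a call, 5 gained one, 7 changed sign, and 12 counts of the second myeloid list moved by more than the limit set for counts. The cause was not tested for any of them. Requiring a 2-fold change left 9 members higher in whole nerve at day 5 and 9 at day 7 (3.69% and 2.95% of all genes), 1 lower between days 5 and 3 and 1 between days 7 and 3 (0.0695% and 0.537%), 3 called in Schwann cells at day 3 (2 higher and 1 lower of 23, against 6.65% and 8.56%) and 2 at day 5 (1 each way, against 5.64% and 9.16%), and 2 lower for the difference of crush effects at day 5 and 2 at day 7 (3.58% and 3.46%). The fit of all 16 libraries called 10 members lower between days 5 and 3 of whole nerve and 11 between days 7 and 3 (3.72% and 8.49% of all genes). It gave a log2 fold change of 0.031 for Lyve1 in whole nerve at day 5, and moved the share of higher among called genes at day 7 from 49.3% to 60.8%. Without the filter 13 of 32 members were called in Schwann cells at day 3 (12 higher, 1 lower, against 19.3% and 18.8%), 9 for the difference of effects at day 3 (2 higher, 7 lower, against 9.36% and 9.23%) and 14 at day 7 (all lower, against 10.7%), where the fit of 8 libraries called 8 lower (11.6%). DESeq2 called 5 of 30 in Schwann cells at day 3 (4 higher, 1 lower, against 21.2% and 21.3%). With TPM the median day 7 level in Schwann cells was 1.65% of whole nerve.

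Leaving out 1 library gave 14 to 17 members called lower between days 5 and 3 of whole nerve (1.51% to 1.67% of all genes). In Schwann cells it gave 3 to 13 called at day 3 (2 to 12 higher, against 19.9% to 23.2%) and 3 to 5 at day 5 (1 to 2 higher, against 21.9% to 24.6%). For the difference of effects it gave 2 to 11 called at day 3 and 3 to 6 at day 5, of which 2 to 11 and 3 to 6 were lower, against 9.54% to 12.7% and 10.9% to 13.7%. The median level was 2.38% to 4.71% of whole nerve without injury, 0.762% to 2.73% at day 3, 1.31% to 2.20% at day 5 and 1.04% to 1.33% at day 7. Uncalled values changed sign in whole nerve at day 5 for Csf1 (-0.251 to 0.0978) and Lyve1 (-0.150 to 0.0351), at day 7 for Cd14 (-0.014 to 0.831), between days 5 and 3 for Trem2 (-0.061 to 0.0764), and between uncrushed tissues for Csf1 (-0.0565 to 0.291).

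The replicate numbers were not taken to pair the libraries, since over 28 pairs of groups the correlation of replicate differences ranged from -0.0998 to 0.127. With a replicate block 3 members were called in Schwann cells at day 5, where Cd48 and Lyve1 lost their calls. For genes of a few counts in Schwann cells, depth limits how precisely the loss is known.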
